A study of Mus musculus with 30 samples.

Results

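Serine synthesis and ATF4 stress genes form a set of 10 mouse genes among the 53715 gene models counted in each table. They are Psph, Phgdh, Psat1, Shmt2, Mthfd2, Asns, Atf4, Trib3, Chac1 and Nupr1. Psph and Nupr1 were chosen because their levels differed between Myocd mutant and control lung, so their values in those comparisons are a description and carry no test. The other 8 were chosen for their function, with results of these data known. All 10 passed the filter on low counts in every comparison. They were followed in 30 polyA RNA-seq libraries from mouse embryos, each made from the lung or the trachea of a single embryo. Myocd encodes myocardin, a cofactor of serum response factor that drives smooth muscle genes, and the series asked what airway smooth muscle does in lung and trachea development. Mutant embryos were Tbx4rtTAi/+; tetOcrei/+; MyocdF/F, so that a Cre recombinase under a tetracycline operator could remove both floxed Myocd copies where the Tbx4 driver is active, which is the respiratory mesenchyme. Controls were Tbx4rtTAi/+; tetOcrei/+; MyocdF/+, so they carried the driver and Cre too and could lose 1 copy. The exception was E13.5 control replicate 1, which was MyocdF/F with neither transgene. The groups were E13.5 lung (right and left lobes, 5 controls and 5 mutants), E18.5 lung (right lobes, 4 controls and 6 mutants) and E18.5 trachea (4 controls and 6 mutants).

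Cells make serine from the glycolytic intermediate 3-phosphoglycerate through Phgdh, Psat1 and Psph in turn. In mitochondria Shmt2 turns serine into glycine and passes the released carbon to folate, and Mthfd2 oxidises that folate carrier, which feeds purine and thymidylate synthesis in dividing cells. Atf4 is a transcription factor whose protein is made when the initiation factor eIF2 is phosphorylated under amino acid shortage or other stress. Its protein, with C/EBP partners, activates the serine enzymes, asparagine synthetase (Asns), the pseudokinase Trib3, the glutathione-degrading enzyme Chac1 and the small chromatin-associated protein Nupr1. ATF4 is controlled largely at translation, so its RNA level is not a measure of its protein.

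The C/EBP-ATF response element that ATF4 binds was searched as TGATGNAA on both strands (TTNCATCA when read from the other strand) in RefSeq promoter windows of GRCm38.p6. Each window runs from 250 bases before to 50 bases after a gene start, and all 10 genes had a window. The element was in the windows of 4 of the 10, and these 4 sites are shown because they are the only matches among the genes followed here. Each is printed 5′ to 3′ on the strand of its gene, 30 bases in all, with the element in capitals.
Asns: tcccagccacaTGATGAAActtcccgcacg
Trib3: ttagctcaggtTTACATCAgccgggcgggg
Chac1: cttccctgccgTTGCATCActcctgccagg
Nupr1: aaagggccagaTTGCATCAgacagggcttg
The Asns site lies at chr6:7693214-7693243 on the minus strand, and its element begins at position -23 from the RefSeq start site. Chac1 has its site at chr2:119351038-119351067 on the plus strand, with the element at position -193. For Nupr1 the site is chr7:126625562-126625591 on the minus strand, with the element at position -110. The Trib3 site is chr2:152344028-152344057 on the minus strand, and its element begins at position 15, after the RefSeq start. Positions depend on the start used: in the GENCODE annotation the Trib3 gene ends its span at 152344032, so this element lies before the gene, and the Asns and Nupr1 elements lie inside the gene spans. Chac1 and Nupr1 share the same 8 letters. Windows of Psph, Phgdh, Psat1, Shmt2, Mthfd2 and Atf4 did not hold these letters. Of all 32851 windows 3.97% held the element, and of the 27025 genes with a window 4.51% did. The shares were 41.9% (13 of 31) in a list of ATF4-responsive genes outside the serine pathway, which includes the 4 genes shown, and 41.7% (5 of 12) in a list of cytosolic aminoacyl-tRNA synthetases, the enzymes that load amino acids onto tRNA. In a list of serine, glycine and folate genes the share was 4.17% (1 of 24). A match shows only that the letters are there.

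Library totals ranged from 17431300 to 28450117 counted reads in E13.5 lung, from 19858023 to 32843686 in E18.5 lung and from 11738468 to 30465585 in E18.5 trachea. Levels are in CPM, each count taken relative to the size of its library so that libraries of different depth can be compared. Library sizes were adjusted by TMM, which evens out differences in RNA composition. Counts over the whole Myocd gene ranged from 10.1 to 18.8 CPM in E13.5 controls and from 6.74 to 13 CPM in E13.5 mutants. These overlapping ranges include exons outside any deleted one, so they are a poor check of the labels. Contractile smooth muscle genes give a better one: their summed level was 602 to 781 CPM in E13.5 controls against 201 to 420 CPM in mutants, and 746 to 1136 CPM against 176 to 398 CPM in trachea. In E18.5 lung the gap was much smaller, 313 to 358 CPM against 274 to 294 CPM. Tissue markers matched the labels, with summed alveolar epithelial genes at 13908 CPM or more in every E18.5 lung and 1174 CPM or less in every trachea, and summed cartilage genes at 110 CPM or less against 4370 CPM or more. Libraries stood apart in a few places. E13.5 mutant replicate 1 was the shallowest of its stage, with 32.8% of all tested genes above every control, against 13.9% to 16.5% in the other 4 mutants. Trachea control replicate 2 had the lowest total of all libraries, and trachea mutant replicate 4, with 12384284 counted reads, the next lowest. Skeletal muscle genes summed to between 32 and 3533 CPM in single tracheas and thyroid genes to between 5.64 and 629 CPM. These carry-over markers vary within both genotypes.

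In E13.5 mutant lung all 10 genes had a positive log2 fold change against control. The largest differences were in Chac1, Trib3, Asns, Nupr1 and Mthfd2. The median over the 10, with Psph and Nupr1 included, was 0.71 on the log2 scale, against 0.011 over all 16486 genes tested. By edgeR's quasi-likelihood test with Benjamini-Hochberg adjustment over all genes, 0 of the 8 genes not chosen on this comparison were called at 0.05, where 0.206% of all genes were called. All 8 had an unadjusted p below 0.05 and were higher in mutants, where 1.27% of all genes were. DESeq2 called 4 of the 8, Phgdh, Mthfd2, Asns and Chac1, and 79 genes in all against 34 by edgeR. Because the genes were chosen with these results known, the counts and the median describe the set and do not test it. In whole lung, more RNA per cell and more cells of an expressing type cannot be told apart.

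The 3 enzymes that make serine were modestly higher. Psph, the phosphatase of the last step, read 12.7, 13.3, 13.4, 13.9 and 13.4 CPM in controls 1 to 5. In mutants 1 to 5 it read 21.6, 18.1, 20.8, 17.5 and 20.3 CPM. Every mutant lay above every control, and the difference was 0.56 on the log2 scale (SE 0.0732), or 1.48-fold. It was one of the values by which Psph was chosen. Phgdh, the dehydrogenase of the first step, read 79.0, 82.0, 86.4, 75.6 and 81.1 CPM in controls. Mutants read 102, 109, 124, 85.4 and 105 CPM, so that only replicate 4 reached into the control range. The difference was 0.38 (SE 0.0871, edgeR adjusted p = 0.222; DESeq2 adjusted p = 0.0307). Psat1, the transaminase between them, gave control values of 267, 315, 243, 276 and 267 CPM. Its mutant values were 249, 348, 389, 290 and 380 CPM. Replicates 2, 3 and 5 were above all controls and the other two were within the control range, for a difference of 0.28 (SE 0.119, edgeR adjusted p = 0.998).

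The mitochondrial one-carbon enzymes differed between themselves. Shmt2 read 125, 133, 137, 127 and 141 CPM in controls and 127, 178, 199, 133 and 186 CPM in mutants. Again replicates 2, 3 and 5 were above the controls while 1 and 4 were among them (log2 difference 0.32, SE 0.118, edgeR adjusted p = 0.998). Mthfd2 was tight in controls, at 49.5, 45.2, 46.8, 50.2 and 48.3 CPM. Its mutant values of 64.4, 104, 82.9, 63.7 and 117 CPM all lay above them. The difference was 0.85 (SE 0.155), or 1.81-fold, with an edgeR adjusted p of 0.057. Mthfd2 passed with DESeq2 (adjusted p = 0.000134), and with edgeR when mutant replicate 1 (adjusted p = 0.0353) or 4 (adjusted p = 0.0277) was left out. Among the 8 genes not chosen on this comparison Mthfd2 was the only one with all mutants above all controls, where 0.279% of all genes showed this.

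Asns, which makes asparagine from aspartate and glutamine, split the mutants. Controls read 32.3, 35.2, 40, 32 and 34.0 CPM. Mutant replicates 2, 3 and 5 read 117, 121 and 109 CPM, while replicates 1 and 4 read 38.7 and 49.3 CPM. Only replicate 1 overlapped the controls. The mean difference was 1.33 on the log2 scale (SE 0.283), or 2.51-fold, with an edgeR adjusted p of 0.154 and a DESeq2 adjusted p of 0.024. Leaving out mutant replicate 1 gave 1.52 (edgeR adjusted p = 0.0489).

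Atf4 itself was higher in a different subset of mutants. Its control values were 199, 209, 172, 203 and 202 CPM, and its mutant values 280, 199, 199, 265 and 340 CPM. Replicates 1, 4 and 5 were above all controls, while replicates 2 and 3, which had the 2 highest Asns levels, were inside the control range. The difference was 0.39 (SE 0.135, edgeR adjusted p = 0.998).

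Trib3 and Chac1, which are induced late in the stress response, were the most uneven. Trib3 read 1.46, 2.52, 2.21, 1.82 and 1.65 CPM in controls and 2.53, 7.42, 2.29, 3.16 and 13.3 CPM in mutants. Replicates 2 and 5 stood well apart, and replicate 3 fell among the controls (log2 difference 1.59, SE 0.462, edgeR adjusted p = 0.649). Chac1 lay between 0.5 and 0.591 CPM in all 5 controls, from 12 to 16 counted reads each. In mutants it read 0.353, 8.45, 1.02, 4.79 and 28.4 CPM, from 6, 205, 25, 135 and 751 counted reads. The values of replicates 2 to 5 were above every control, and the highest was 51.5 times the control mean. The fitted difference was 3.97 (SE 0.939, edgeR adjusted p = 0.252), and 2.76 without mutant replicate 5. Nupr1 read 1.81, 0.936, 1.46, 1.51 and 1.81 CPM in controls and 3.42, 3.26, 3.84, 1.95 and 3.33 CPM in mutants. All mutants were above all controls, by 1.07 on the log2 scale (SE 0.214), one of the differences by which Nupr1 was chosen.

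**Figure D1:**
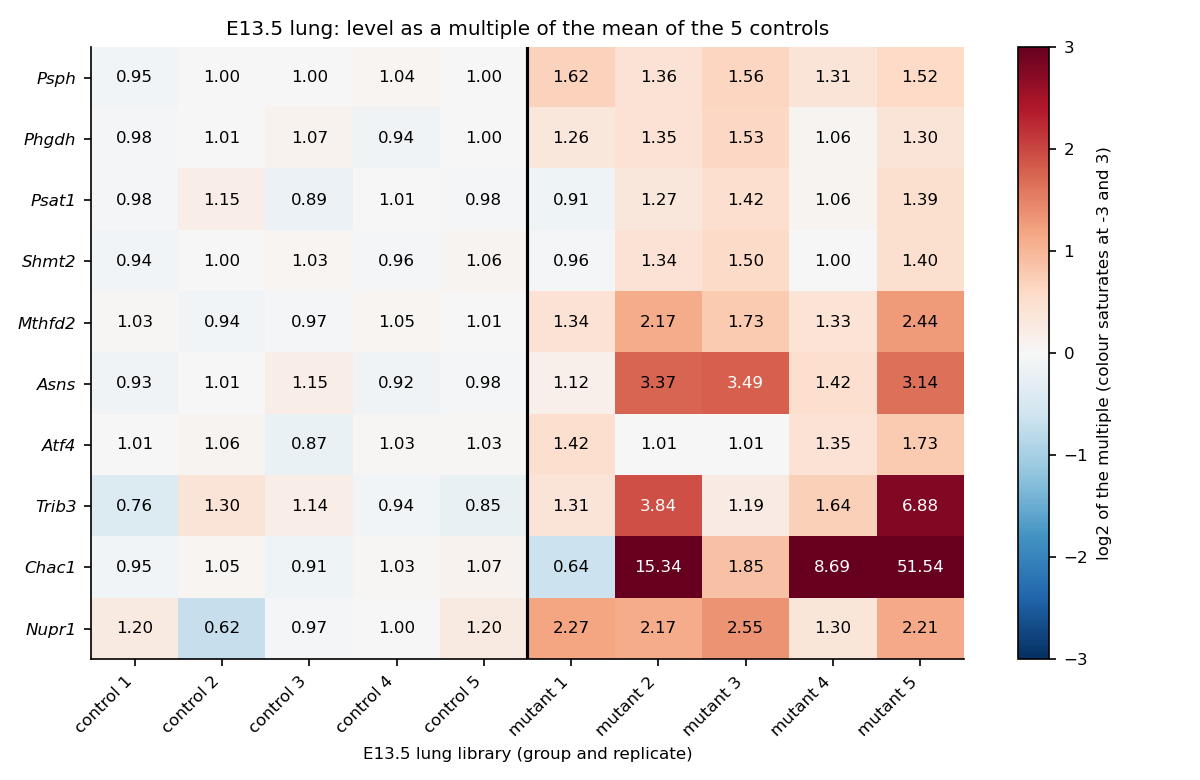
Each cell gives the level of a gene (rows) in an E13.5 lung library (columns, controls left of the line and mutants right) as a multiple of the mean of the 5 controls, coloured by its log2. Mutant replicate 5 exceeds the control mean for all 10 genes, up to 51.5-fold for Chac1, while replicate 1 is below it for Psat1, Shmt2 and Chac1.

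Counted by library, mutant replicate 5 was above every control for 10 of the 10 genes, replicate 2 for 9, replicate 3 for 8, replicate 4 for 7 and replicate 1 for 6. The same was true of 13.9%, 15.2%, 16.5%, 15.7% and 32.8% of all genes tested in those libraries. Psph and Nupr1, chosen for changes in mutant lung, were above every control in all 5 mutants and are in each count. The counts therefore describe the set and do not test it. The library with the highest count was the one with the smallest share over all genes. Other markers varied between the same libraries. Red cell genes summed to 5110, 3927, 2747, 2061 and 1563 CPM in mutants 1 to 5 and to between 1735 and 4240 CPM in controls. Cell cycle genes summed to between 4561 and 4825 CPM in mutants and 4261 and 4579 CPM in controls, and immediate early genes, which can respond to handling, to between 240 and 291 CPM and 271 and 325 CPM. The contractile genes were lower in all 5 mutants, as given above. The part of any of these in the differences was not tested.

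**Figure D2:**
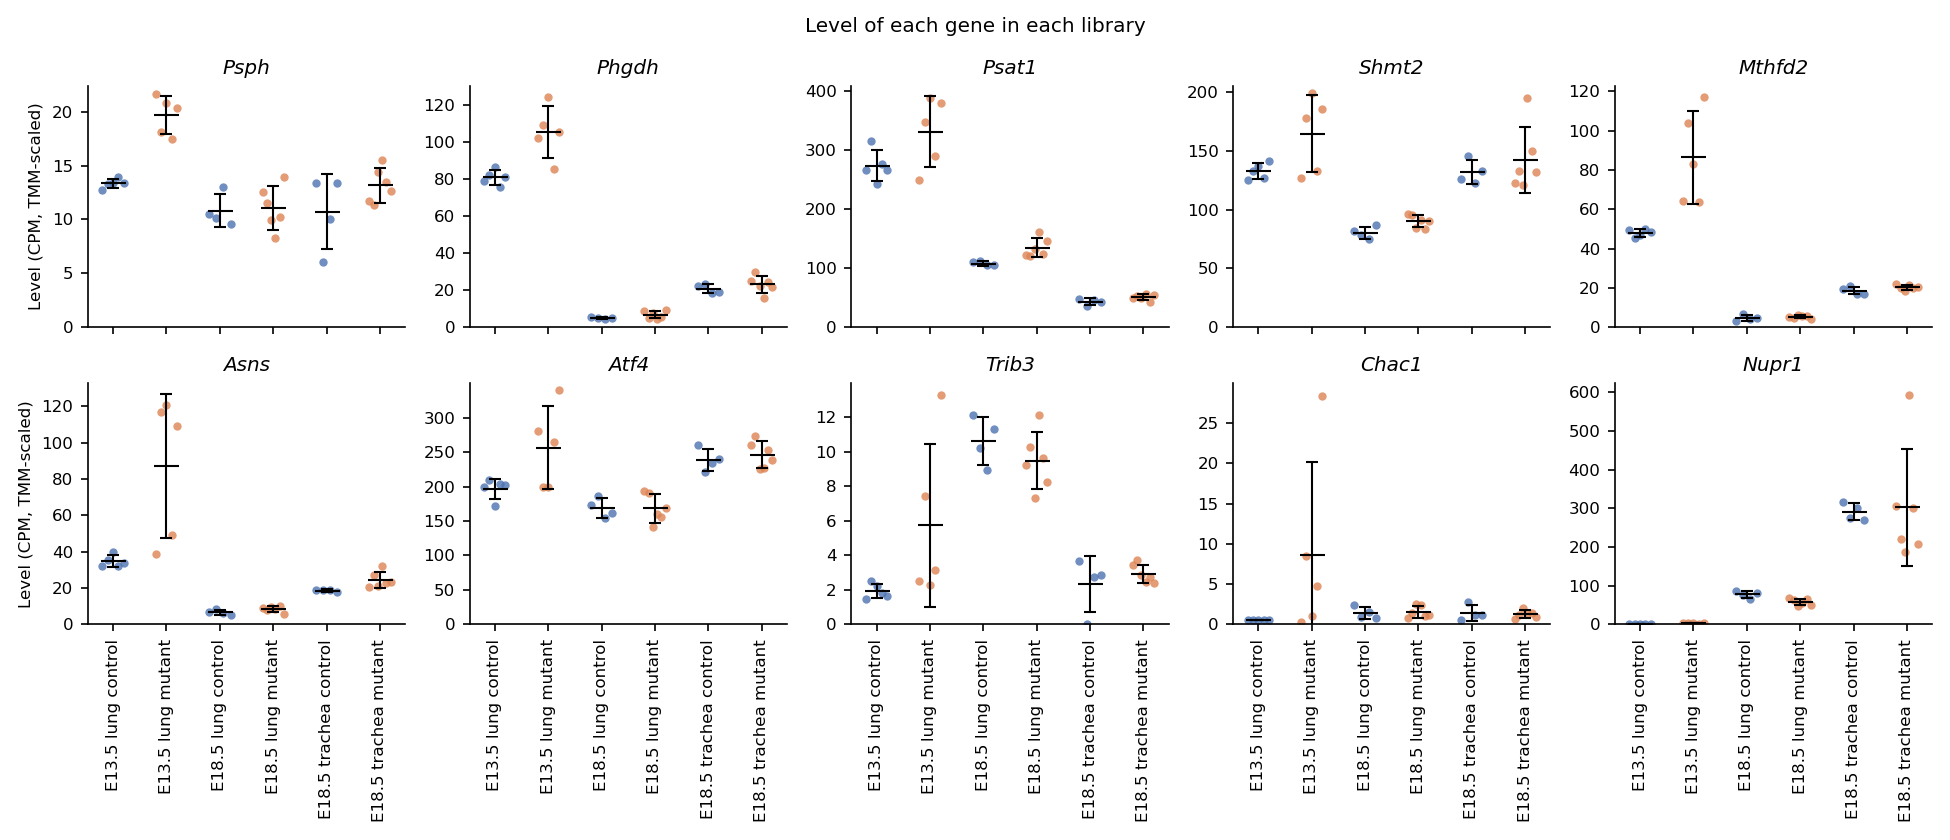
Level of each gene (CPM, linear axis from 0) in every library of the 6 groups, controls in blue and mutants in orange, with the mean and 1 SD in black. The spread in E13.5 mutants exceeds that in E13.5 controls for every gene, with Chac1 from 0.353 to 28.4 CPM against 0.5 to 0.591 CPM.

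Genes of the wider pathway were read from lists. Of 30 other ATF4-responsive genes tested, edgeR called 0 in E13.5 mutants, and 15 were higher and 0 lower at an unadjusted p below 0.05. Of all genes 1.27% were higher at that p by edgeR. This share was taken for the main edgeR fit only, so the DESeq2 and left-out counts below have none of their own. With the 4 listed genes of the set included these counts were 19 higher and 0 lower of 34, also by DESeq2, and 13 to 20 when any 1 library was left out. The 4 are Asns, Trib3, Chac1 and Nupr1, and Nupr1 was chosen for its change in mutant lung, so its place in these counts follows from that choice. The median log2 fold change of the 30 was 0.24. Among the 20 cytosolic tRNA synthetases edgeR called 0, while 11 were higher and 0 lower at an unadjusted p below 0.05, also 11 by DESeq2, with a median of 0.18. Their lowest edgeR adjusted p was 0.0574, for Yars, the tyrosine enzyme, with a difference of 0.46. Eif4ebp1, which encodes a repressor of translation initiation, was higher by 0.65 (edgeR adjusted p = 0.0818). Yars and Eif4ebp1 were named after their values were seen. Of 24 other serine, glycine and folate genes 0 were called, with 2 higher and 1 lower at an unadjusted p below 0.05 and a median of 0.04. Aldh1l2, which oxidises formyl-folate in mitochondria, was among the 2, higher by 1.65 (edgeR adjusted p = 0.247), and was likewise named after its value was seen. Endoplasmic reticulum chaperones and genes of the ATF6 and XBP1 arms gave 0 of 23 in either direction at an unadjusted p below 0.05. Mitochondrial chaperones and proteases gave 0 of 10. Of 15 genes for eIF2, its kinases, phosphatase subunits and exchange factor, 1 was higher.

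**Figure D3:**
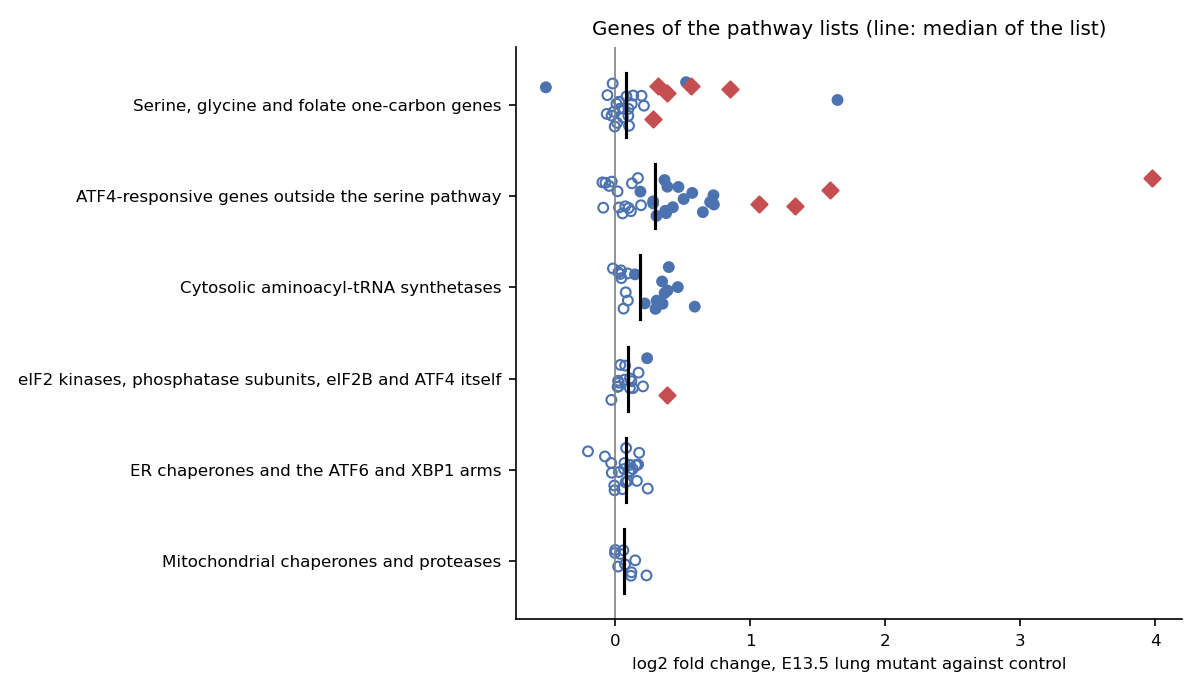
Log2 fold change in E13.5 mutant against control lung for genes of 6 pathway lists, with members of the set as red diamonds, other genes as circles (filled where the unadjusted edgeR p is below 0.05) and the median of each list as a line. The ATF4-responsive and tRNA synthetase lists hold 15 and 11 filled circles, and the chaperone lists hold 0.

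At E18.5 the same comparison was made in right lobes. None of the 8 unchosen genes was called by edgeR (0.584% of all 17467 genes were), 3 of 8 were higher at an unadjusted p below 0.05 (4.02% of all genes), and DESeq2 called 1, Psat1. The 3 were serine genes. Psat1 read 110, 112, 105 and 105 CPM in controls and from 121 to 162 CPM in mutants, with a median of 129 CPM. Mutants and controls did not overlap, and the difference was 0.33 (SE 0.0793, edgeR adjusted p = 0.0752; DESeq2 adjusted p = 0.0127). Psat1 was the only gene of the set with all E18.5 mutant lungs above all controls, seen for 0.59% of all genes. Phgdh ran from 4.6 to 5.43 CPM in controls and from 4.52 to 9.20 CPM in mutants with a median of 6.39 CPM. Replicates 1, 3 and 6, at 8.77, 7.46 and 9.20 CPM, were the high ones (log2 difference 0.45, SE 0.212, edgeR adjusted p = 0.527). Shmt2 ran from 75.0 to 86.9 CPM in controls and from 83.8 to 96.0 CPM in mutants (0.17, SE 0.0657, edgeR adjusted p = 0.407).

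The stress genes of the set gave little at E18.5. Control lungs 1 to 4 read 2.44, 0.954, 1.58 and 0.835 CPM for Chac1, and mutants ran from 0.808 to 2.56 CPM, a difference of 0.09 (SE 0.417). Trib3 ran from 8.93 to 12.1 CPM in controls and 7.34 to 12.1 CPM in mutants, a difference of -0.16 (SE 0.151). Atf4 read 154 to 187 CPM and 141 to 194 CPM, a difference of 0.00 (SE 0.0856). Asns was 0.31 (SE 0.182) and Mthfd2 0.16 (SE 0.212). The edgeR adjusted p of these 5 genes was 0.637 or more. Nupr1 read 87.2, 75.1, 66.8 and 82.3 CPM in controls and 48.2 to 67.8 CPM in mutants with a median of 59.5 CPM. Mutants lay below controls except that the highest mutant exceeded the lowest control, and the difference of -0.41 (SE 0.0992) had the opposite sign to that at E13.5. Psph, at 9.62 to 13 CPM and 8.29 to 13.9 CPM, gave 0.04 (SE 0.152). These 2 belong to the values behind their choice. Of 31 other ATF4-responsive genes 0 were called, with 0 higher and 2 lower at an unadjusted p below 0.05. Several marker lists differed in the same lungs. Of 18 cell cycle genes 12 were higher at an unadjusted p below 0.05, with a median of 0.33, though 0 were called by edgeR. Airway epithelial genes summed to 810 to 1121 CPM in mutants against 1379 to 1629 CPM in controls, with 3 of 6 tested called lower. Of 9 contractile genes 2 were called lower. Of 6 red cell genes 1 was called lower and 4 were lower at an unadjusted p below 0.05, with sums of 3581 to 4633 CPM against 4250 to 5699 CPM. The part of these in the values of the set was not tested.

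In E18.5 trachea the test called 0 of 10 genes by edgeR and 0 by DESeq2 (0.071% of all 18315 genes were called by edgeR), and 2 of 10 had an unadjusted p below 0.05, both higher (3.33% of all genes). The count was 1 of 10 with no low-count filter, with the replicate block, and without any of several single libraries. Asns was the larger of the 2. Control tracheas read 18.9, 19, 18.9 and 17.6 CPM, and mutants ran from 20.8 to 32.1 CPM with a median of 23.0 CPM. The groups did not overlap, as for 0.852% of all genes, and the difference was 0.42 (SE 0.155, edgeR adjusted p = 0.667). Without mutant replicate 4, a shallow library that gave the highest Asns value, the difference was 0.32. Psat1 ran from 35.6 to 48.1 CPM in controls and 43.6 to 57.1 CPM in mutants (0.27, SE 0.119, edgeR adjusted p = 0.732). Cartilage genes were lower in the same mutants, with sums of 4370 to 15384 CPM against 12785 to 19319 CPM in controls and 7 of 10 lower at an unadjusted p below 0.05, though edgeR called 0. Of 9 contractile genes 2 were called lower. The part of these in the Asns and Psat1 values was not tested. Of the other 8 genes 7 had a positive difference, Trib3 the largest at 0.35 (SE 0.674). That value rests on control replicate 2, where Trib3 had 0 counts, which allows a level of up to 0.242 CPM (3 counts), and it is -0.05 without that library. The other 3 controls read 3.70, 2.74 and 2.87 CPM. Nupr1 read 317, 275, 302 and 270 CPM in controls and 187 to 594 CPM in mutants, where replicate 4 alone set the highest value. Its difference was 0.09 (SE 0.284), and -0.24 without that library, which also held the most red cell RNA of the tracheas (3150 CPM against 451 to 1147 CPM in the other 5 mutants).

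**Figure D4:**
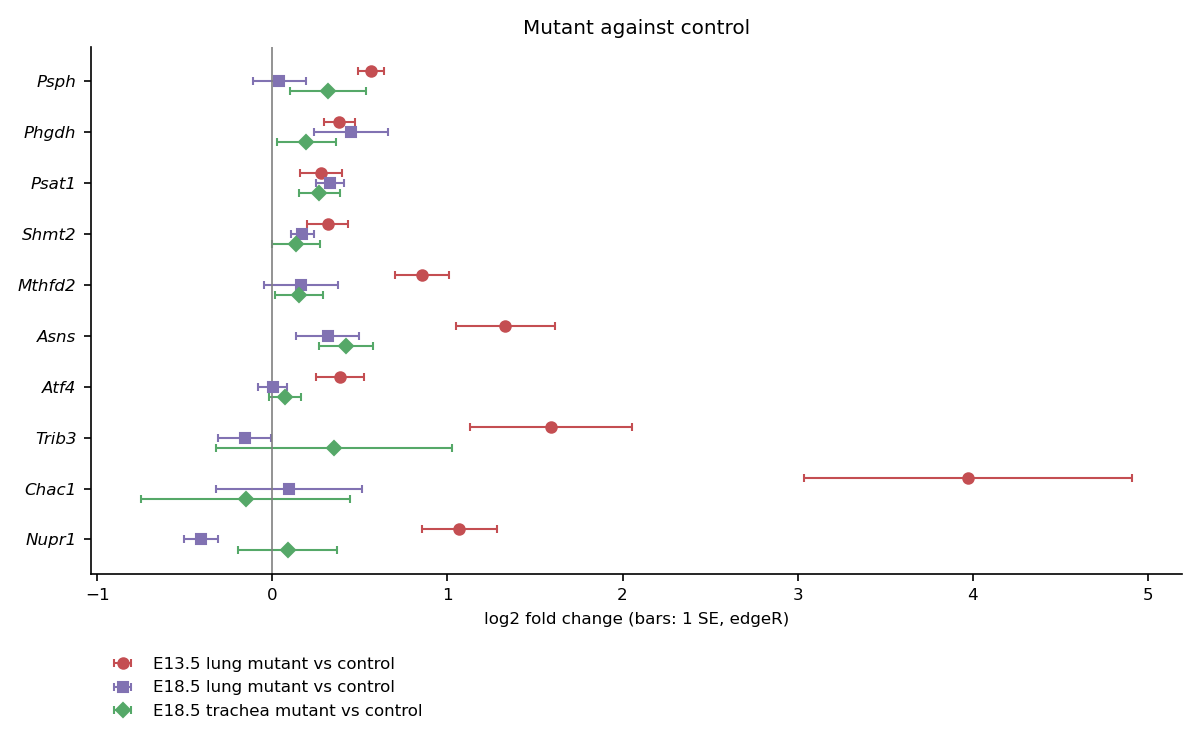
Log2 fold change of each gene in mutant against control, with bars of 1 SE, for E13.5 lung (circles), E18.5 lung (squares) and E18.5 trachea (diamonds). All 10 circles lie above 0, from 0.28 for Psat1 to 3.97 for Chac1. Squares and diamonds lie between -0.41 and 0.45.

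Whether the mutant effect itself differed between stages was tested as an interaction over all 20 lung libraries. Differences of effect, E18.5 minus E13.5, were -3.87 for Chac1 (SE 1.09), -1.75 for Trib3 (SE 0.476), -1.02 for Asns (SE 0.361), -0.70 for Mthfd2 (SE 0.242) and -0.39 for Atf4 (SE 0.169). These 5 had an unadjusted p below 0.05, but edgeR and DESeq2 each called 0 of the 8 after adjustment (lowest edgeR adjusted p = 0.427), where edgeR called 0.0268% of all genes. For Phgdh, Psat1 and Shmt2 the differences were 0.07 (SE 0.207), 0.05 (SE 0.147) and -0.15 (SE 0.135). The estimates for Phgdh and Psat1 were thus close at both stages, and those for Chac1, Trib3 and Asns were far apart, but none of the 8 differences was called. Psph, the last of the serine enzymes, did not stay close, with a difference of -0.53 (SE 0.17). Nupr1 gave -1.47 (SE 0.227). Psph and Nupr1 were chosen on these lungs, so their values here are a description and carry no test. Between trachea and lung at E18.5 the interaction called 0 of the 8 by either tool, 0 had an unadjusted p below 0.05, and edgeR called 0.0252% of all genes.

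Stage was compared between E13.5 and E18.5 lung of the same genotype. In control lung 8 of 10 genes were called, 6 lower (37.3% of all 18639 genes were) and 2 higher (37.4%), so that most genes of the table were called between these stages and the count says little about the set. The sizes follow. Phgdh fell the most. Its mean was 80.8 ± 3.96 CPM (SD) over the 5 controls at E13.5 and 4.96 ± 0.346 CPM over the 4 at E18.5, and the same n and error hold for the means that follow. No library of one stage came near the other, and the log2 difference was -4.01 (SE 0.172, edgeR adjusted p = 3.12e-16), a 16.1-fold fall. Mthfd2 went from 48.0 ± 2.02 CPM to 4.68 ± 1.48 CPM, a fall of 10.1-fold (log2 -3.34, SE 0.194, edgeR adjusted p = 1.04e-13). Asns fell 5.09-fold, from 34.7 ± 3.24 CPM to 6.71 ± 1.29 CPM (log2 -2.35, SE 0.284, edgeR adjusted p = 1.98e-07). Smaller falls were seen for Psat1 (2.51-fold) and Shmt2 (1.63-fold). Psph, the last enzyme, fell by 0.29 on the log2 scale (edgeR adjusted p = 0.0449), a call lost with DESeq2 (adjusted p = 0.0761) and with RLE size factors (adjusted p = 0.07). The serine route was therefore uneven over time, with a 16.1-fold fall at its first enzyme and a 1.22-fold fall at its last.

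Nupr1 and Trib3 went the other way. Nupr1 rose from 1.51 ± 0.358 CPM to 77.9 ± 8.90 CPM, a 52.2-fold rise (log2 5.71, SE 0.175, edgeR adjusted p = 6.5e-19). Trib3 rose 5.55-fold, from 1.93 ± 0.428 CPM to 10.6 ± 1.37 CPM (edgeR adjusted p = 1.73e-06). Atf4 did not pass, at 197 ± 14.7 CPM and 169 ± 14.4 CPM (edgeR adjusted p = 0.139), and neither did Chac1 (log2 1.41, edgeR adjusted p = 0.144), which was called when mutant lungs were left out of the fit (adjusted p = 0.000995). In mutant lung all 10 genes were called, 8 lower (38.4% of all genes) and 2 higher (37.2%). Psph and Nupr1 were chosen on these mutant lungs and on the control lungs above. The stage values of these genes, in controls and in mutants, are therefore not independent of that choice. Log2 differences in mutant lung were -3.94 for Phgdh, -4.03 for Mthfd2, -3.37 for Asns and -1.28 for Psat1. Those for Shmt2, Psph and Atf4 were -0.86, -0.82 and -0.60. Chac1 fell by 2.47, or by 1.24 without E13.5 mutant replicate 5 (edgeR adjusted p = 0.0335). Nupr1 rose by 4.23 and Trib3 by 0.72 (edgeR adjusted p = 0.0418). The Trib3 call was lost with no low-count filter and in the fit of the 2 mutant groups alone. It was also lost when any of several single libraries was left out, for instance E13.5 mutant replicate 3 (edgeR adjusted p = 0.122). The Trib3 call was firmer at 1.30 without E13.5 mutant replicate 5 (edgeR adjusted p = 6.9e-05).

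Other genes of the pathway were read against the shares of all genes given above, 37.3% lower and 37.4% higher. In control lung 16 of 25 other serine, glycine and folate genes were lower and 6 higher, with a median of -1.25, among them the purine synthesis gene Atic (5.74-fold lower) and the mitochondrial serine carrier Sfxn1 (3.71-fold lower). Of 20 tRNA synthetases 19 were lower and 0 higher, with a median of -1.02. The other ATF4-responsive genes did not move one way: 15 of 31 were higher and 12 lower, with Vldlr, a lipoprotein receptor, 16.1-fold higher and Aldh18a1, of proline synthesis, 5.47-fold lower. All 18 cell cycle genes were lower, with a median of -2.53, and their summed level went from 4261 to 4579 CPM down to 745 to 1152 CPM. The E13.5 libraries hold right and left lobes and the E18.5 libraries right lobes only, so stage and lobe cannot be told apart. The sample titles also number the E13.5 and E18.5 libraries as separate sets. Stage cannot be told apart from any difference in how those sets were made. The part of cell division in the fall of the serine genes was not tested.

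At E18.5 trachea and lung differed in which enzyme of the pathway was high. In controls 8 of 10 genes were called, 6 higher in trachea (24.5% of all 19859 genes were) and 2 lower (24.6%). Mutants gave the same 8 genes in the same directions, against 31.7% of all genes higher and 26.5% lower. The comparisons of stage, tissue and genotype share the E18.5 lungs. Phgdh read 22.1, 23.3, 18.3 and 19 CPM in control tracheas and 5.43, 4.95, 4.6 and 4.85 CPM in control lungs. Trachea was higher in every library, by 4.2-fold (log2 2.07, SE 0.217, edgeR adjusted p = 1.35e-08). Psat1, the next enzyme, read 48.1, 35.6, 46.9 and 42.0 CPM in trachea against 110, 112, 105 and 105 CPM in lung. Here every trachea was below every lung, by 2.48-fold (log2 -1.31, SE 0.11, edgeR adjusted p = 2.53e-10). Psph differed by 0.01 (SE 0.207). Consecutive enzymes of 1 pathway thus differed in opposite directions between these tissues. Mutant tissues gave 1.86 for Phgdh and -1.33 for Psat1.

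Mthfd2, at 19.5, 21.0, 17 and 17 CPM in control trachea against 3.19, 6.62, 3.98 and 4.93 CPM in lung, was 4-fold higher (SE 0.194 on the log2 scale, edgeR adjusted p = 3.4e-09). Asns was 2.78-fold higher and Shmt2 1.65-fold higher in control trachea. Atf4 was 1.42-fold higher (log2 0.51, SE 0.0996, edgeR adjusted p = 0.000134). Nupr1, at 270 to 317 CPM against 66.8 to 87.2 CPM, was 3.76-fold higher. Trib3, at 0 to 3.70 CPM against 8.93 to 12.1 CPM, was 4.4-fold lower in trachea (log2 -2.14, SE 0.454, edgeR adjusted p = 0.000348), and the fall was 1.77 on the log2 scale without trachea control replicate 2. Chac1 differed by -0.01 (SE 0.553). In mutants the differences were 2.03 for Mthfd2, 1.62 for Asns, 0.73 for Shmt2, 0.62 for Atf4, 2.44 for Nupr1 and -1.62 for Trib3. Psph, at 0.32 in mutants, missed the threshold (edgeR adjusted p = 0.109). Of 25 other serine, glycine and folate genes 10 were higher and 6 lower in control trachea. Stc2, a secreted glycoprotein of the ATF4-responsive list, was 17.2-fold higher and Vegfa, the endothelial growth factor, 6.34-fold lower. Cartilage and airway epithelial genes were higher in trachea (10 of 10 and 7 of 7 called) and endothelial and alveolar genes lower (5 of 5 and 8 of 8), so the tissues differ in their cells, and the part of this in the enzyme levels was not tested.

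**Figure D5:**
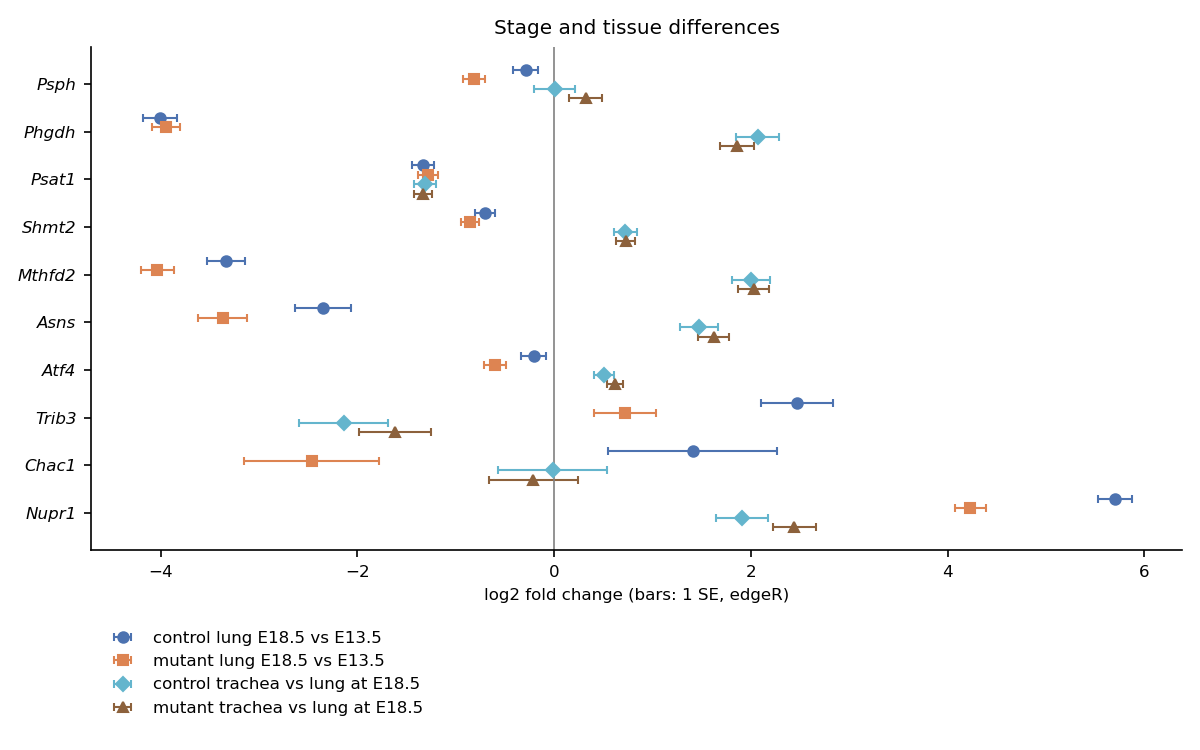
Log2 fold change of each gene, with bars of 1 SE, between E18.5 and E13.5 lung in controls (circles) and mutants (squares), and between trachea and lung at E18.5 in controls (diamonds) and mutants (triangles). Phgdh, Mthfd2 and Asns lie left of 0 for stage and right of 0 for tissue, and Psat1 lies left of 0 for each.

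Levels of different genes can be set side by side per kilobase of exon. In E13.5 control lung the order was Atf4 (83.6 ± 6.23 CPM per kb, SD, n = 5), Psat1 (64.4 ± 6.16), Shmt2 (42.7 ± 2.18), Phgdh (32.5 ± 1.59), Mthfd2 (13.8 ± 0.578) and Asns (12.7 ± 1.18). Mthfd2 and Asns did not differ beyond their spread. Psph followed at 3.08 ± 0.0953, and Trib3, Nupr1 and Chac1 were below 1, at 0.909, 0.599 and 0.337 CPM per kb. By E18.5 the order in control lung was Atf4 (71.6), Nupr1 (31.0), Shmt2 (25.9), Psat1 (25.4), Trib3 (4.99), Psph (2.49), Asns (2.45), Phgdh (1.99), Mthfd2 (1.34) and Chac1 (0.887). Shmt2 and Psat1, Psph and Asns, Asns and Phgdh, and Mthfd2 and Chac1 did not differ beyond their spread in this order. Every Psph library, at 2.22 to 3 CPM per kb, lay above every Phgdh library, at 1.85 to 2.18 CPM per kb. Control trachea put Nupr1 first (116 CPM per kb) ahead of Atf4 (101), and had Psat1 (10.1 ± 1.33) and Phgdh (8.32 ± 0.97) close together. Mean levels of Phgdh were below those of Psat1 per kb in all 3 control groups.

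Across all 30 libraries, deviations of log2 CPM from the group mean were compared with those of 12149 named genes of at least 5 CPM on average. The values are correlations within shared libraries and are given as a description. The genes most like Asns were Shmt2 (0.665), the amino acid transporter Slc7a5 (0.660) and Mthfd2 (0.644). Over the 25 libraries without E13.5 mutants these values were 0.289, 0.199 and 0.427, lower for each. Shmt2 was most like Nlrx1 (0.828), Atf5 (0.828) and Mknk2 (0.804), and Mthfd2 like Asns, Slc7a3 (0.584) and Rabif (0.559). For Atf4 the nearest were Gsta3 (0.605), Tap1 (0.597) and Herpud1 (0.597). Psph was nearest to Pdcd7 (0.813), Phgdh to Nle1 (0.762), Psat1 to Atp6v0e2 (0.780), Trib3 to Uba7 (0.802), Chac1 to Pcdhgb8 (0.761) and Nupr1 to Inha (0.807), none of them in the pathway lists. Asns and Atf4 themselves gave -0.290, and Asns and Chac1 0.408.

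Psph lies on chromosome 5 (GRCm38, 129765558 to 129787449, minus strand) and shares 10.4% of its exon bases with Cct6a on the other strand. The library kit does not mark strand, so reads there cannot be assigned to either gene. Cct6a differed by 0.06 between E13.5 mutant and control lung. Nupr1 lies on chromosome 7 (126623249 to 126630861, minus strand) and shares none. Shmt2 shares 1.03% of its exon bases with Ndufa4l2, and the other 7 share none. No other gene within 200 kb of Psph or Nupr1 at 1 CPM or more was called by edgeR in mutant lung at either stage, and those beside Psph differed by between -0.20 and 0.22 at E13.5. A pseudogene of Phgdh, Phgdh-ps1, had 16 counts over all 30 libraries.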

How the data were processed

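The deposited values are raw read counts per gene, in 1 table for each tissue and stage. Per the labels' protocols, libraries were made with a polyA kit that does not mark strand. Per the submitters' processing notes and the file headers, the authors used STAR, GRCm38, GENCODE M17 and featureCounts 1.6.2, which by default leaves out reads that overlap more than 1 gene. Symbols came from a GENCODE annotation that matched 53620 of 53715 gene IDs. Genes were tested with edgeR 4.0.16 (quasi-likelihood F test, TMM, filterByExpr, robust fit) in R 4.3.3, with Benjamini-Hochberg adjustment over all genes at a threshold of 0.05. DESeq2 1.42.0 was an alternative, beside RLE size factors, no filter, a replicate block, 2-group fits and leaving out each library. Fits were tested on simulated counts. The members and gene lists were chosen with earlier results of these data known. In the lists, up to 3 called genes that are not members were named per list and comparison, by smallest p. The likeness of genes used log2(CPM + 0.5). Deviations of E18.5 lung and trachea of the same replicate number correlated at 0.158 to 0.287 in controls (4 of 4 over 0.1) and 0.12 to 0.294 in mutants (6 of 6). Same-numbered lungs of the different stages, which come from different embryos, gave 0.051 to 0.242 in controls (3 of 4) and -0.155 to 0.141 in mutants (1 of 5). These values alone do not settle whether lung and trachea came from the same embryo. The sample titles number the E18.5 lungs and tracheas in the same mixed order of controls and mutants, as same-embryo pairs would be, but do not name the embryo. Same-numbered lung and trachea may therefore be paired. The main fits did not pair them, so their SEs and p-values between tissues treat the libraries as separate embryos. Litters are not given in the sources used here, so p-values measure the spread between these libraries. No pair of libraries of the same group agreed within sampling noise, and pairs from different groups were not compared in this way. Floors cover counting error only.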

Additional observations from a re-analysis of the deposited data

Results flagged for a closer look

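Of 60 series of values (10 genes in 6 groups), 4 held a library that stood far from the rest of its group by Dixon's criterion, where chance gives about 1 in 20. Chac1 read 28.4 CPM in E13.5 mutant lung replicate 5, against 8.45 CPM in the next highest mutant. Nupr1 read 594 CPM in trachea mutant replicate 4, against 305 CPM in the next highest. That trachea also had the highest red cell sum of its group, 3150 CPM, and the highest thyroid sum, 540 CPM. The part of these sums in the Nupr1 value was not tested. Atf4 was low in E13.5 control lung replicate 3, at 172 CPM against 199 CPM for the next, and Asns was low in trachea control replicate 4, at 17.6 CPM against 18.9 CPM.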

How the results depend on the processing

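Low depth limits Chac1, at 12 to 16 counts in each E13.5 control, and Trib3, at 0 counts in trachea control replicate 2. At E13.5, 0 of 8 genes were called by edgeR, 4 by DESeq2 and 0 to 2 when 1 library was left out, with 2 (Mthfd2 and Asns, or Phgdh and Mthfd2) without mutant replicate 1 or 4. At E18.5 in lung, 0 of 8 became 1 (Psat1) with DESeq2 and 1 with no low-count filter. Calls over all genes were, at E13.5, 34 with edgeR, 79 with DESeq2, 44 with no filter and 0 with the replicate block; in E18.5 lung 102, 262, 192 and 69; and in trachea 13, 99, 22 and 22. Control and mutant libraries share only a number, with correlations of -0.293 to -0.017 at E13.5 (0 of 5 over 0.1), 0.001 to 0.406 in E18.5 lung (3 of 4) and -0.316 to 0.448 in trachea (2 of 4). With the replicate block the E13.5 counts at an unadjusted p below 0.05 were 7 of 8 genes, 15 ATF4-responsive genes (the listed genes of the set included) and 8 tRNA synthetases. The share of all genes at that p was not taken with the block, so these counts have nothing to be read against. In mutant lung the block took the fall of Chac1 between stages from -2.47 to -1.71 (adjusted p = 0.0714). It changed no call of a member in the trachea and lung comparisons. Of 1900 recomputed fold changes of members 1797 were counted as unchanged, 24 lost and 13 gained a call, and 66 changed sign, none of them called in either fit. Unchanged means the same direction and side of the threshold. For Psph and Nupr1 in mutant against control lung and in the interactions it means only a move of less than 1 SE. Sign changes there are not among the 66: Psph in E18.5 mutant lung ran from -0.038 to 0.14 when single libraries were left out.

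Several values that were not called changed sign. With no filter Atf4 in E18.5 mutant lung was -0.0061. With the replicate block Chac1 in trachea mutants was 0.034 and the Phgdh stage interaction -0.047. For Chac1 between control tissues, RLE gave 0.019, DESeq2 0.0048 and no filter 0.045. For the Shmt2 tissue interaction, RLE, DESeq2, no filter and the block gave -0.013, -0.014, -0.055 and -0.013, and for Mthfd2 no filter gave -0.024. Psph between control tissues was -0.046 with the block and -0.012 with 2 groups. Leaving out single libraries gave ranges of -0.048 to 0.052 for Atf4 and -0.11 to 0.46 for Chac1 in E18.5 mutant lung, -0.41 to 0.40 for Chac1, -0.24 to 0.20 for Nupr1 and -0.051 to 0.66 for Trib3 in mutant trachea, -0.56 to 0.36 for Chac1 and -0.12 to 0.18 for Psph between control tissues, -0.049 to 0.16 for Phgdh and -0.035 to 0.11 for Psat1 in the stage interaction, and -0.57 to 0.35 for Chac1, -0.19 to 0.18 for Mthfd2, -0.0904 to 0.037 for Psat1 and -0.11 to 0.068 for Shmt2 in the tissue interaction. The cause was not tested.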

Other observations

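Protein-folding genes outside the set differed between trachea and lung. Of 23 endoplasmic reticulum chaperones and genes of the ATF6 and XBP1 arms, 15 were higher and 3 lower in control trachea than in control lung at E18.5 by edgeR, where 24.5% and 24.6% of all genes were. In mutants 16 were higher and 3 lower, against 31.7% and 26.5%. Manf, a secreted stress-responsive protein, was 2.03-fold higher (edgeR adjusted p = 1.04e-08) and Pdia6, a disulfide isomerase, 2.17-fold higher (edgeR adjusted p = 1.62e-08) in control trachea. Ern1, which encodes the stress sensor IRE1, was 2.55-fold lower (edgeR adjusted p = 3.48e-09).

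Between E13.5 and E18.5, 7 of 10 mitochondrial chaperones and proteases fell in control lung and 0 rose, where 37.3% of all genes were lower and 37.4% higher. The chaperonin Hspd1 fell 5.6-fold (edgeR adjusted p = 1.25e-17) and Hspa9, a mitochondrial Hsp70, 3.44-fold (edgeR adjusted p = 8.42e-18). Of 15 genes for eIF2 and its regulators 9 fell and 4 rose, with Eif2s1, the phosphorylated subunit, 3.13-fold lower (edgeR adjusted p = 1.2e-12).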
